A study of Rattus norvegicus with 47 samples.

Results

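Blood mRNA was compared between the samples taken at 2 hours and at 1 hour post MCA occlusion, which are 16 of the 47 arrays of a stroke time course. The 8 arrays at 1 h and the 8 arrays at 2 h were chosen by their labelled time, and each probe set of the array was described by its step, the mean log2 signal at 2 h minus that at 1 h. All animals were male spontaneously hypertensive rats (SHR) aged 16 weeks. Each had a transient occlusion of the middle cerebral artery (MCAo) by a silicon-coated thread, and blood had also been drawn at 0 h, before anesthesia, and at 3, 6 and 24 h (7 arrays at 6 h). Per the study's methods, the rats were anesthetized again and the thread was withdrawn between the 1 h and the 2 h sample, so the step spans late occlusion and early reperfusion. There was no sham-operated group. Occlusion, reperfusion, repeated anesthesia with isoflurane, repeated tail vein sampling and the time of day cannot be told apart in this step.

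Blood is a mixture of red cells, platelets and white cells. Neutrophils are fast-acting phagocytes held partly in the bone marrow and along vessel walls, and can enter the circulation within hours of an injury or a surge of adrenal hormones. B cells and T cells carry the adaptive response and move between blood and lymphoid organs. Monocytes sense microbial and damage signals through Toll-like receptors, whose adaptor Myd88 leads to the transcription factor NF-kB and to cytokines such as tumor necrosis factor. In a bulk blood sample, fewer cells of a type and less RNA per cell cannot be told apart, and this holds for each result given here.

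The array carried 27596 probe sets, of which 21406 had a gene symbol in the table's annotation and 6190 had none. Signal is given on the log2 RMA scale, so a step of 1 is a doubling. The deposited means and SDs of the time points were used, since the names of the single-array columns give no rat or time point. The text therefore gives means with SDs (n = 8 at both times) in place of single samples, and whether the samples of the groups overlapped was not examined. The SD over 8 arrays had a median of 0.14 at 1 h and 0.14 at 2 h. A probe set was called changed when a moderated limma test computed from the means and SDs gave a false discovery rate (FDR) below 0.05 over all probe sets. That test takes the arrays as independent, although the same 8 rats were sampled at both times.

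The label of the tissue was set beside marker lists. The median 1 h signal was 11.42 for 26 erythroid genes, 10.89 for 13 platelet genes, 10.64 for 19 neutrophil genes and 9.28 for 22 T cell genes. It was 6.65 for 14 brain genes, 6.40 for 15 genes of skin, connective tissue and muscle, and 6.66 over all probe sets. Signals of different probe sets are not on 1 scale of abundance, so these medians describe the arrays and rank no transcript.

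In the hour from 1 h to 2 h, 2422 probe sets changed (8.78% of 27596). Of these, 1287 were higher at 2 h (4.66%) and 1135 were lower (4.11%), a share of 53.1% higher. When each time point was centred on its median, the counts were 1516 and 839, a share of 64.4% higher, and quantile normalization of the means gave 1418 and 946, a share of 60.0%. The 1287 higher calls and 839 of the lower calls were made with and without centring. The median step over all probe sets was -0.01, or 0.01 after centring. Most changes were small: the called steps had a median size of 0.34, and 471 (1.71%) were above 0.5 in size, 335 of them higher (1.21%) and 136 lower (0.493%). Probe sets with a symbol were called more often, 5.32% of them higher and 4.68% lower, than those without, at 2.41% and 2.16%. Only 25 steps passed 1, an increase or decrease by a factor of 2, 18 up and 7 down. The step was greater than the larger of the SDs at 1 h and 2 h in 2419 of the 2422 called probe sets, with a median ratio of 1.85. A call already needs a step that is large beside the SDs, so this count largely restates the threshold.

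The same test called 10237 probe sets (37.1%) between 0 h and 1 h, 5997 (21.7%) higher and 4240 (15.4%) lower, and 973 (3.53%) between 2 h and 3 h, of which 525 (1.9%) rose and 448 (1.62%) fell. Against 0 h, 11139 (40.4%) were called at 2 h, 6002 (21.7%) higher and 5137 (18.6%) lower. The median size of a change was 0.14 in the first hour, 0.077 in the second and 0.071 in the third. The 0 h sample was drawn before anesthesia and surgery, and 1 h was counted from occlusion. The interval called the first hour was therefore longer than the others, and sizes of change are not compared as rates. Calls were unevenly spread over signal: in 4 equal groups of probe sets ordered from low to high mean signal, 2.41%, 3.87%, 8.61% and 20.2% were called in the step.

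Each called step was set beside the change of the same probe set in the first hour, to ask which transcripts began to change after 1 h, which went on and which turned back. A change was said to begin when the first hour had no call, to go on when both hours were called in the same direction, and to turn back when the directions were opposite. Rises began in 565 probe sets (2.05%) and went on in 580 (2.1%), while falls began in 433 (1.57%) and went on in 501 (1.82%). Rises of the first hour turned back in 201 (0.728%) and falls in 142 (0.515%). After centring these counts were 83 and 240, and at an FDR of 0.01 they were 35 and 51. Which of them was larger therefore depended on the scaling and on the threshold. Of the 10237 probe sets called in the first hour, 8813 had no called step in the second. The first hour and the step share the 1 h arrays, so a chance excess at 1 h moves the values in opposite directions. The counts of the classes are therefore a description.

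**Figure D1:**
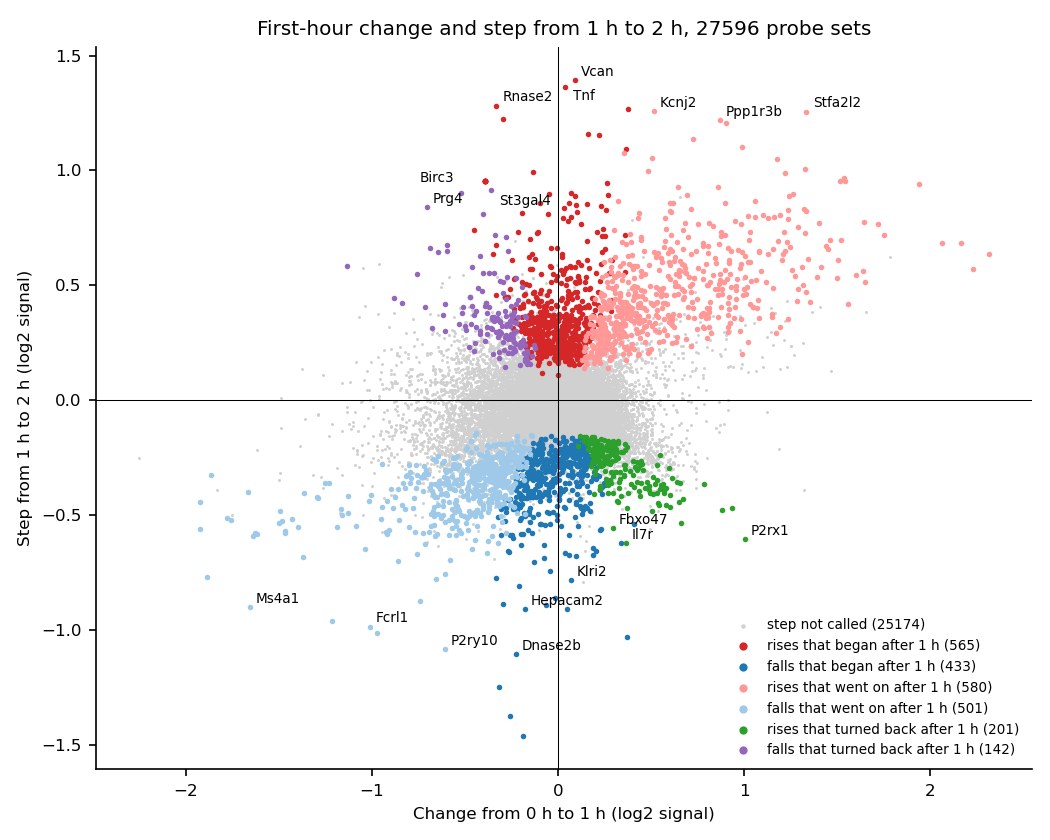
Change from 0 h to 1 h (x axis, log2) against the step from 1 h to 2 h (y axis, log2), 1 point per probe set, coloured by class and grey where the step was not called. Rises that went on lie at the upper right and reach a step of 1.26, while Vcan and Tnf, the steepest rises at 1.39 and 1.36, had changed by 0.09 and 0.04 in the first hour.

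The classes differed in how far they moved. Rises that went on had a median change of 0.49 in the first hour and 0.42 in the second, and reached a median of 0.95 above 0 h at 2 h. Falls that went on had medians of -0.43 and -0.36 and stood at -0.79. Rises that began had a median of 0.00 in the first hour and 0.32 in the second, and falls that began had -0.04 and -0.32. Rises that turned back had medians of 0.29 and -0.27, and falls that turned back had -0.30 and 0.33. At 2 h, 185 of the 201 probe sets whose rise had turned back and 117 of the 142 whose fall had turned back were not called against 0 h. A further 14 falls that turned back were called above 0 h by 2 h.

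A missing call in the first hour does not show that nothing moved then, so the difference between the hours was tested itself, and it was called in 11.1% of all probe sets. The step of the second hour exceeded the change of the first by this test in 190 of the 565 rises that began. The fall was larger in the second hour in 79 of the 433 falls that began. These classes were chosen by the same values, so the direction of the difference was all but fixed. The counts are no separate evidence that a change began after 1 h, and the 11.1% is no background for them. Among rises that went on, the difference was called in 78 of 580, of which 75 were smaller in the second hour and 3 larger. Among falls that went on it was called in 36 of 501, all smaller in the second hour.

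**Figure D2:**
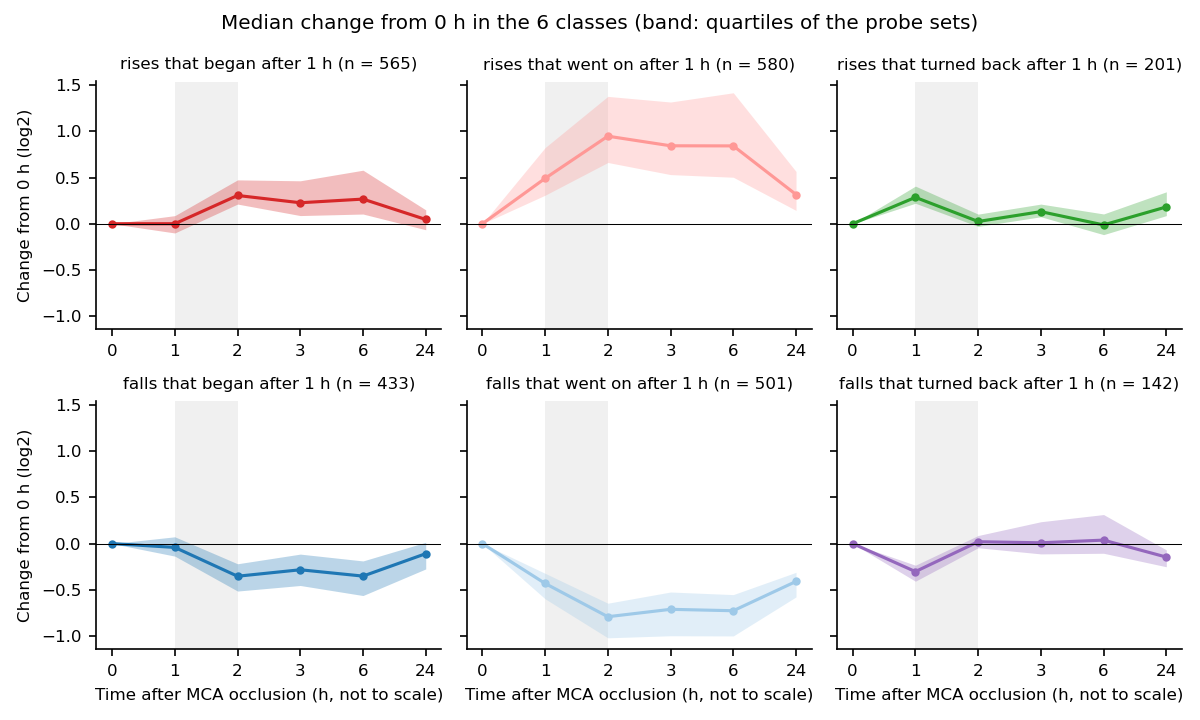
Median change from 0 h (log2) of the probe sets of each class over the 6 time points, with a band between the quartiles of the probe sets and grey shading over the hour from 1 h to 2 h. The classes that went on reached 0.95 and -0.79 at 2 h, while both classes that turned back had a median of 0.02 at that time.

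The largest rises that began after 1 h were in genes that myeloid cells can express. Vcan, which encodes the matrix proteoglycan versican and is strongly expressed by monocytes, had a mean of 9.39 ± 0.32 at 0 h, 9.48 ± 0.51 at 1 h and 10.88 ± 0.42 at 2 h (SD, n = 8). Its step was 1.39 (SE 0.18, 95% interval 1.02 to 1.77, FDR 6.66e-07), a 2.63-fold rise, and it went on to 11.76 at 3 h. The gene lies at chr2:18363889-18463017 on the minus strand of the rn5 assembly. Tnf (chr20:6936229-6938847, plus strand), which encodes tumor necrosis factor, stood at 7.68 at 0 h and 7.72 ± 0.33 at 1 h and at 9.08 ± 0.52 at 2 h. Its step was 1.36 (SE 0.19, FDR 1.29e-06). For both genes the hour before had left the mean within 0.1 of 0 h, and the difference between the hours was called (FDR 0.00615 for Vcan and 0.00606 for Tnf).

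Rnase2, a secreted enzyme of the ribonuclease A family, had a step of 1.28 (SE 0.23) from 8.96 to 10.25. Serpinb1a, an inhibitor of neutrophil proteases, had a step of 1.27 (SE 0.18) from 9.35 ± 0.16 to 10.62 ± 0.15 after 0.38 (SE 0.18, FDR 0.0891) in the first hour. By an unadjusted p below 0.05 its rise would count as one that went on. The step was 8.14 times the larger of its SDs. Tfec, a transcription factor of macrophages, rose by 1.22 (SE 0.22) from 7.71 to 8.94. Serpinb1a and Tfec rose again by 3 h, by 1.07 and 1.24, and these changes were called too, as was that of Vcan, by 0.88. Tnf and Rnase2 had no called change from 2 h to 3 h.

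The largest falls that began after 1 h included genes of T cells and NK cells. Dnase2b, a DNase II family enzyme, had a mean of 8.42 ± 0.56 at 1 h and 7.31 ± 0.39 at 2 h, a step of -1.10 (SE 0.20, FDR 0.000181). Hepacam2, a cell adhesion protein of the immunoglobulin family, went from 7.02 ± 0.24 to 6.11 ± 0.31. Klri2, a lectin-like receptor of NK cells, went from 7.61 ± 0.36 to 6.83 ± 0.27. Trat1, an adaptor of the T cell receptor complex, had a step of -0.77 (SE 0.17), and Cd40lg, the CD40 ligand of activated T helper cells, had a step of -0.74 (SE 0.17). Cd40lg was at 9.37 at 0 h and 9.32 at 1 h. The largest fall of all was that of a probe set without a symbol, 10934207, at -1.46, with means of 5.17 ± 0.75 and 3.71 ± 0.62.

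Among rises that went on, Kcnj2 (chr10:99130687-99131970), an inward rectifier potassium channel, moved most. It had a mean of 7.87 ± 0.17 at 0 h, 8.39 ± 0.26 at 1 h and 9.65 ± 0.19 at 2 h, a step of 1.26 (SE 0.12, FDR 9.86e-10). It is 1 of the 3 rises that went on whose change was larger in the second hour by the test of the difference (FDR 0.0182). Arid5a, which encodes an RNA-binding protein that stabilizes inflammatory transcripts, is another of these, with 7.11 at 0 h, 7.46 ± 0.19 at 1 h and 8.54 ± 0.16 at 2 h (difference FDR 0.00414). Stfa2l2, of the stefin family of cysteine protease inhibitors, had a step of 1.26 (SE 0.22) after a first-hour change of 1.33. Ppp1r3b, a glycogen-targeting subunit of protein phosphatase 1, had a step of 1.22 (SE 0.13), and Upp1, uridine phosphorylase, one of 1.14 (SE 0.13). None of these 5 had a called change from 2 h to 3 h.

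The falls that went on included genes that B cells express. P2ry10, a lysophospholipid receptor of lymphocytes, had a mean of 11.49 ± 0.13 at 0 h, 10.88 ± 0.31 at 1 h and 9.80 ± 0.28 at 2 h, a step of -1.08 (SE 0.15, FDR 2.19e-06). Fcrl1, a receptor-like protein of B cells, fell by 1.01 in the first hour and fell by 0.99 in the second. Ms4a1 (chr1:234494122-234506270), which encodes the B cell antigen CD20, had means of 10.14 ± 0.16, 8.48 ± 0.35 and 7.58 ± 0.23 at the 3 times. Its step was -0.90 (SE 0.13, FDR 5.08e-06) and was smaller than its first-hour fall of 1.66 (difference FDR 0.0278). Immp1l, a mitochondrial inner membrane peptidase subunit, had a step of -0.87 (SE 0.22), which was not called with unequal variances. Bcl11a, a transcription factor of B cells, had a step of -0.77 (SE 0.26, FDR 0.0479), and its FDR lay between 0.052 and 0.148 in 6 of the alternative settings at the same threshold. Its other probe set, at -0.16, was not called.

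Rises that turned back were smaller. Il7r, the interleukin-7 receptor of T cells, went from 10.22 ± 0.08 at 0 h to 10.58 ± 0.24 at 1 h and 9.96 ± 0.22 at 2 h, a step of -0.62 (SE 0.11, FDR 0.000134). P2rx1, an ATP-gated channel of platelets and other blood cells, rose by 1.00 in the first hour and then fell by 0.61 (SE 0.14). It was still above 0 h at 2 h by 0.40 (FDR 0.0210). Tyms, thymidylate synthase, fell by 0.53 (SE 0.13), Fbxo47, an F-box protein, by 0.56 (SE 0.08) and Atp8a2, a lipid flippase, by 0.48 (SE 0.09). Fbxo47 had a mean signal in the 21.5th percentile of all probe sets.

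Falls that turned back included 1 gene of the NF-kB list described below, Birc3, and 0 genes of the neutrophil and monocyte lists. Birc3 (chr8:6047761-6062839), an inhibitor of apoptosis that NF-kB induces, had a mean of 9.11 ± 0.16 before occlusion, 8.58 ± 0.22 at 1 h and 9.49 ± 0.19 at 2 h. Its step was 0.90 (SE 0.11, FDR 2.88e-07), and at 2 h it stood 0.38 above 0 h. St3gal4, a sialyltransferase that builds selectin ligands on leukocytes, was at 8.44, 8.08 ± 0.28 and 8.99 ± 0.23, a step of 0.91 (SE 0.13), and Rhbdf2, which carries the protease that releases tumor necrosis factor to the cell surface, had a step of 0.71 (SE 0.09). All 3 were called above 0 h at 2 h. Prg4, lubricin, had a step of 0.84 (SE 0.20) and Fn1, fibronectin, one of 0.66 (SE 0.15), and neither was called against 0 h at 2 h.

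**Figure D3:**
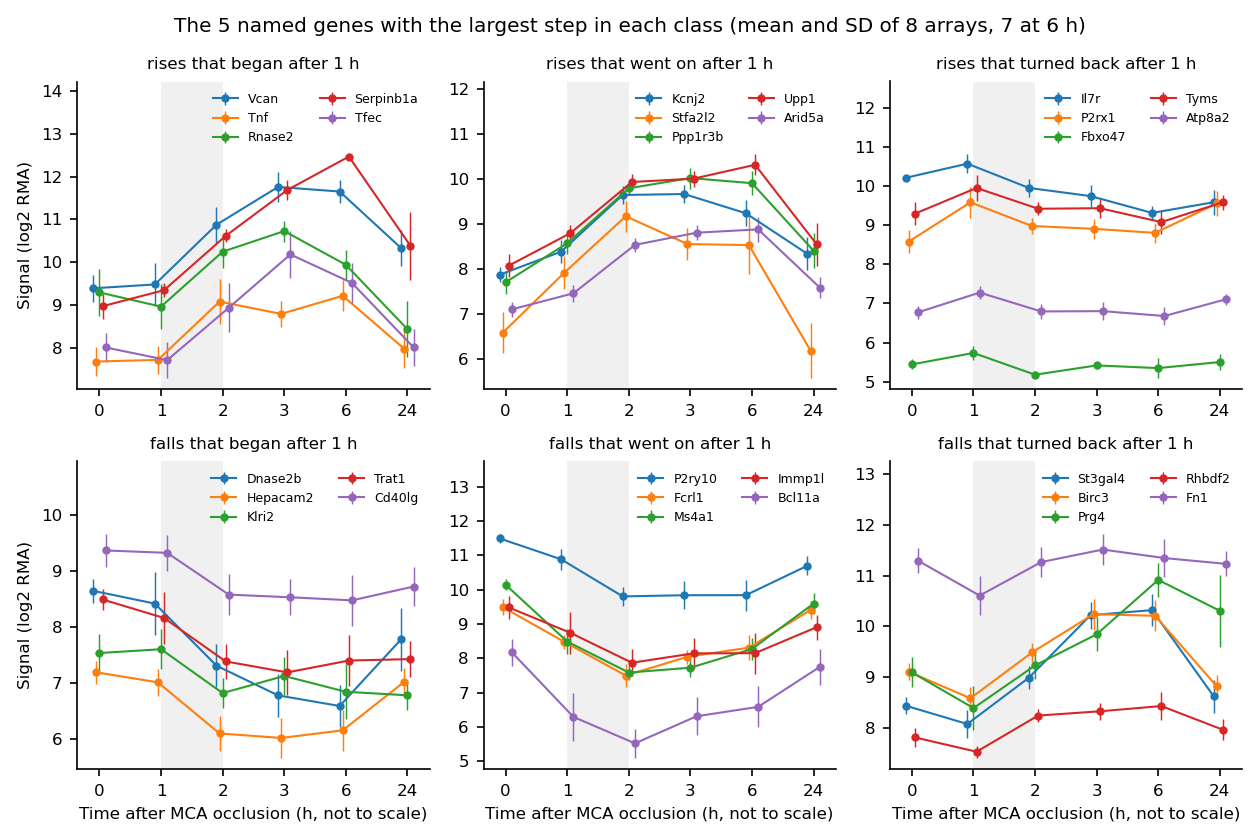
Mean signal (log2 RMA) with SD of 8 arrays (7 at 6 h) at the 6 time points for the 5 genes with the largest step in each class, with grey shading over the hour from 1 h to 2 h. Vcan and Tnf lie flat from 0 h to 1 h and then rise, whereas Ms4a1 falls in both hours and Birc3 dips at 1 h.

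The genes of 24 lists, for blood cells, other tissues and pathways, were then described. Of the 590 genes listed, 539 were measured by a probe set with 1 symbol, and 118 of these were called in the step. Where a gene had more than 1 probe set, that with the highest mean was used. The lists were chosen with earlier results of these data known, and their counts are read beside 4.66% higher and 4.11% lower over all probe sets. Many list genes have a high signal, and in the highest of the 4 signal groups 11.7% of probe sets were higher and 8.57% lower. That group held 26 of the 26 erythroid genes, 18 of the 22 T cell genes, 14 of the 19 neutrophil genes and 9 of the 19 B cell genes. It also held 76 of 77 ribosomal protein, 24 of 29 interferon-response, 18 of 24 hypoxia and 15 of 20 interleukin-1 and Toll-like receptor genes. By contrast, it held 2 of 14 brain genes and 0 of 11 genes of basophils, mast cells and eosinophils. With unequal variances the calls of Bank1, Spn, Mx2 and Sdhc, given here, were lost as well.

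Of 19 neutrophil genes measured, 12 rose by the test and 0 fell, with a median step of 0.48 after a median first-hour change of 0.94. All 12 had already risen in the first hour. Prok2, a chemokine-like peptide, went from 10.40 ± 0.23 to 11.21 ± 0.22, a step of 0.81 (SE 0.14), and Mmp9, the gelatinase of neutrophil granules, from 10.64 ± 0.23 to 11.32 ± 0.25. S100a8, a subunit of calprotectin, had a step of 0.67 (SE 0.15), Camp, the cathelicidin precursor, one of 0.67 (SE 0.17) and Csf3r, the receptor of granulocyte colony-stimulating factor, one of 0.50 (SE 0.10). For 7 of the 19 genes the second hour was below the first by the test of the difference, and for 0 it was above (6.32% and 4.73% of all probe sets). By 2 h the list stood at a median of 1.45 above 0 h.

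Of 19 B cell genes measured, 10 fell by the test and 0 rose, with a median step of -0.34 after -1.05 in the first hour. All 10 had fallen in the first hour as well, and for 15 of the 19 the second hour was called above the first, where 4.73% of all probe sets were. Cd79b, a signaling chain of the B cell receptor, had a mean of 8.99 ± 0.22 at 1 h and 8.55 ± 0.19 at 2 h, a step of -0.44 (SE 0.12) after -1.92. Bank1, a scaffold of the same receptor, and Ebf1, a factor that sets B cell identity, had steps of -0.57 (SE 0.15) and -0.56 (SE 0.13), but 2 of 6 Bank1 probe sets and 1 of 2 Ebf1 probe sets were not called.

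T cell genes had the highest share of calls of any list. Of 22 measured, 18 were called lower and 0 higher, with a median step of -0.43 after -0.35. In 14 of these the fall went on from the first hour, in 3 it began after 1 h, and Il7r turned back from a rise. The difference between the hours was called for 1 gene, Il7r. Themis, a regulator of T cell selection, went from 9.65 ± 0.24 to 9.04 ± 0.15, a step of -0.61 (SE 0.12). Ccr7, the receptor that guides T cells to lymph nodes, had a step of -0.55 (SE 0.11), and Cd8a, the co-receptor of cytotoxic T cells, also -0.55 (SE 0.11). The CD3 chain genes Cd3e and Cd3g had steps of -0.38 (SE 0.12) and -0.37 (SE 0.11), whereas Cd3d at -0.44 (SE 0.17) was not called (FDR 0.0942). By 2 h the list was at a median of -0.85 against 0 h.

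**Figure D4:**
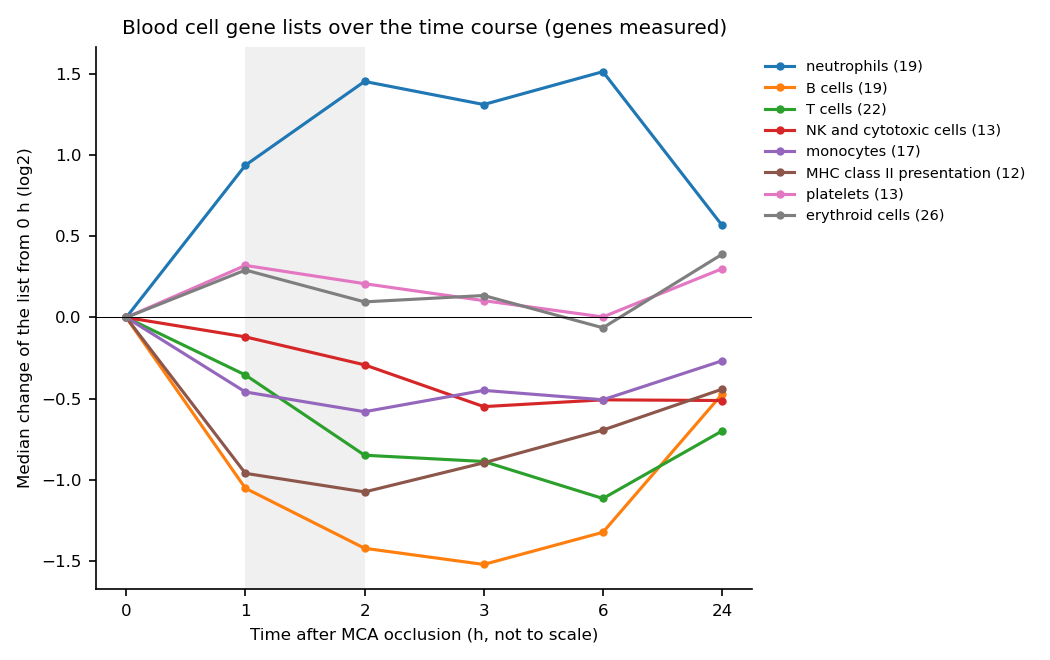
Median change from 0 h (log2) of 8 lists of blood cell genes over the 6 time points, with grey shading over the hour from 1 h to 2 h. From 1 h to 2 h the neutrophil median rose further to 1.45, the T cell median reached -0.85, and the erythroid and platelet medians came down towards 0.

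Of 13 NK and cytotoxic genes, 3 were called lower and 1 higher, with a median step of -0.27 and 12 of the 13 steps below 0. Prf1, perforin, had a step of -0.49 (SE 0.15), Klrk1, the activating receptor NKG2D, one of -0.47 (SE 0.12), and Faslg, the Fas ligand, one of -0.47 (SE 0.16). The Faslg call was lost in 6 alternative settings and that of Prf1 with unequal variances. Klrb1b, a lectin-like NK cell receptor, had a step of 0.48 (SE 0.09). Ncr1, the receptor NKp46 that defines NK cells, had a step of -0.02 (SE 0.09, FDR 0.952).

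Monocyte genes went both ways. Of 17 measured, 4 were called higher and 1 lower, with a median step of -0.16 and a median first-hour change of -0.46. Besides Vcan, Cd14, the co-receptor for lipopolysaccharide, went from 7.65 ± 0.33 to 8.80 ± 0.34, a step of 1.16 (SE 0.16, FDR 8.92e-07), and Itgam, an integrin chain that neutrophils share, had a step of 0.53 (SE 0.08). Spn, sialophorin, had a step of -0.42 (SE 0.10). The defining monocyte genes Csf1r, Cx3cr1 and Cd68 were at -0.22 (SE 0.13), -0.38 (SE 0.15) and 0.41 (SE 0.14), none of them called.

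Genes of MHC class II antigen presentation had fallen by a median of 0.96 in the first hour and had a median step of -0.08 in the second. Of 12 measured, Cd74, the invariant chain, at -0.36 (SE 0.11), and RT1-DOb, a class II chain, at -0.33 (SE 0.10) were lower. Ifi30, a lysosomal thiol reductase, turned back: it had a mean of 9.36 at 0 h, 8.22 ± 0.27 at 1 h and 8.81 ± 0.22 at 2 h, a step of 0.58 (SE 0.10). The difference between the hours was called for 8 of the 12 genes, all towards a weaker fall or a rise (4.73% of all probe sets). The Cd74 call was lost with the variance of the 1 h and 2 h arrays alone (FDR 0.0673) and with unequal variances.

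In the first hour 16 of 26 erythroid and 8 of 13 platelet genes had risen and 0 had fallen, where 21.7% of all probe sets rose and 15.4% fell. Of the 26 erythroid genes, 4 were called lower and 0 higher, with a median step of -0.19 after 0.29, where 8.57% of probe sets of that signal were lower. All 4 had risen in the first hour. They included Trim10, a factor of red cell maturation, with a step of -0.38 (SE 0.11), Slc25a37, an iron carrier of mitochondria, with -0.36 (SE 0.11), and Gypc, a surface glycoprotein, with -0.21 (SE 0.06). The Slc25a37 call was lost in 4 alternative settings, at an FDR of 0.0545 to 0.0708. For 14 of the 26 the second hour was called below the first, where 6.32% of all probe sets were. Hbb, a globin chain, had a step of -0.02 (SE 0.06) and Alas2, the red cell enzyme of heme synthesis, one of -0.04 (SE 0.04). Their 1 h means were 13.52 and 13.42, where the highest mean of any probe set was 13.56, and steps this close to the top of the range do not show that these transcripts held their level. Among 13 platelet genes only Selp, P-selectin, was called, at 0.39 (SE 0.10), and Pf4, platelet factor 4, had a step of -0.02 (SE 0.05).

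Of 11 genes of basophils, mast cells and eosinophils, 3 were lower and 0 higher, and these falls began after 1 h. Ccr3, the eotaxin receptor, went from 6.80 ± 0.29 to 6.12 ± 0.18, a step of -0.68 (SE 0.12). Il5ra, the interleukin-5 receptor, had a step of -0.66 (SE 0.13) and Ms4a2, a chain of the IgE receptor, one of -0.57 (SE 0.13). Mcpt8, a basophil protease, was at -0.53 (SE 0.18, FDR 0.0610), and it was called lower with the variance of the 1 h and 2 h arrays alone (FDR 0.0388).

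**Figure D5:**
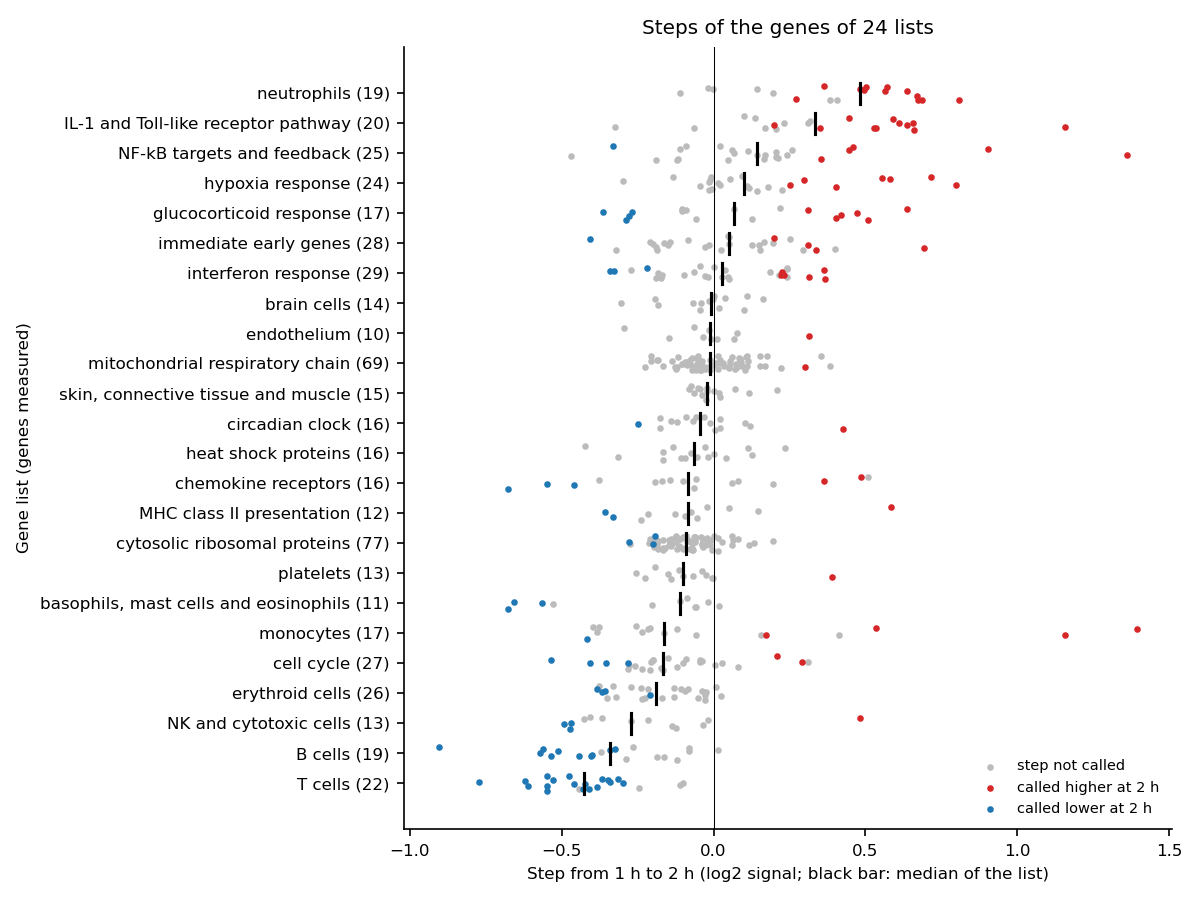
Step from 1 h to 2 h (x axis, log2) of each measured gene of 24 lists (rows, with the number of genes), red where called higher, blue where called lower and grey where not called, with a bar at the median. T cell genes, at a median of -0.43, and neutrophil genes, at 0.48, lie at the opposite ends.

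The pathway with the most rises was that of interleukin-1 and Toll-like receptors. Of 20 genes, 11 were higher and 0 lower, with a median step of 0.33. Of the receptors, Tlr2, which binds bacterial lipopeptides, went from 8.90 ± 0.22 to 9.56 ± 0.15, a step of 0.66 (SE 0.12), and Il1r2, the decoy receptor of interleukin-1, went from 11.00 ± 0.18 to 11.64 ± 0.12 after a rise of 2.32 in the first hour. The adaptor Myd88 began to rise only after 1 h: it was at 10.07 ± 0.09 at 1 h and 10.73 ± 0.15 at 2 h, a step of 0.66 (SE 0.07, FDR 6.30e-09), with a first-hour change of -0.01. In all, 6 of the 11 rises began after 1 h and 5 went on. Some of these genes are also expressed by neutrophils, and Il1r2 stands in the neutrophil list too. The part of these cells in the rises was not tested.

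Of 25 targets and feedback regulators of NF-kB, 5 were higher and 1 lower, with a median step of 0.14. Beside Tnf and Birc3, Nlrp3, the inflammasome sensor, had a step of 0.46 (SE 0.08), as part of a rise that had begun in the first hour. Il1rn, the interleukin-1 receptor antagonist, and Nfkbiz, a nuclear IkB protein, were the other rises, at 0.45 and 0.35. Cd83, a marker of activated dendritic and B cells, had a step of -0.33. Ccl3, a chemokine, was at -0.47 (SE 0.16, FDR 0.0655), and it was called lower with the variance of the 1 h and 2 h arrays alone (FDR 0.0145) and with unequal variances.

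Of 24 genes of the hypoxia response, 7 were higher and 0 lower, with a median step of 0.10. All 7 act in glucose uptake, glycolysis or, for Ndrg1, in the stress response. Slc2a3, a glucose transporter, went from 8.70 ± 0.23 to 9.50 ± 0.24, a step of 0.80 (SE 0.16), after a rise of 1.16 in the first hour. Hk2, hexokinase 2, had no called change in the first hour and went from 7.30 ± 0.26 to 8.01 ± 0.13, a step of 0.72 (SE 0.12). Pfkfb4 and Pfkfb3, which make the activator of phosphofructokinase, had steps of 0.58 (SE 0.08) and 0.55 (SE 0.09). Slc2a1, Ndrg1 and Eno1 had steps of 0.30, 0.40 and 0.25. Neutrophils rely on glycolysis as a rule, and their list rose in the same hour, by a median of 0.48. Its part in these rises was not tested.

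Promoters are shown for 3 of the 4 genes called higher in these pathways that hold the motif of their pathway's factor in the RefSeq window of the GRCr8 assembly, from 250 bases before the annotated start to 50 after it, 5′ to 3′ on the strand of the gene. GRCr8 is a later assembly than rn5, and positions on the builds are not interchangeable. Both strands were searched, for the kappaB consensus that NF-kB binds and for the hypoxia response element core, ACGTG or GCGTG. These genes were chosen after the search. The kappaB consensus was found in 7.51% of all 33469 windows, in 11 of the 20 NF-kB list genes that had a window and in 1 of the 4 of these called higher, Nfkbiz. The hypoxia core was found in 41.6% of all windows, in 15 of the 20 hypoxia list genes with a window and in 3 of the 5 called higher, of which Eno1, with more than 1 window, is not shown. The shares of all are counted per window and the lists per gene, so a gene with more than 1 window had more chances to match. Capitals mark the matches.
Nfkbiz, chr11:58251471-58251770, plus strand, kappaB consensus in capitals: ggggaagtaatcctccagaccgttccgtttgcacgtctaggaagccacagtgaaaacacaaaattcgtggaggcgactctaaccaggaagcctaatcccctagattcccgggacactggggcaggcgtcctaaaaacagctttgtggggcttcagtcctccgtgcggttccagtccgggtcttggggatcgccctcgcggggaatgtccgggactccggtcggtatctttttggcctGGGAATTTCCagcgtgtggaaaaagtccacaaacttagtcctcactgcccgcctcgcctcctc
Slc2a1, chr5:138002272-138002571, plus strand, hypoxia core in capitals: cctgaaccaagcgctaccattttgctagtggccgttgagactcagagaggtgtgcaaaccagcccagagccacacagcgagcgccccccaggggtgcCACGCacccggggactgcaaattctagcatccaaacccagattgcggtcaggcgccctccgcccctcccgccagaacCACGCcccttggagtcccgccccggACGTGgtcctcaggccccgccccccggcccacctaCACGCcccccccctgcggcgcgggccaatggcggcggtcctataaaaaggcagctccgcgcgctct
Pfkfb3, chr17:71944683-71944982, plus strand, hypoxia core in capitals: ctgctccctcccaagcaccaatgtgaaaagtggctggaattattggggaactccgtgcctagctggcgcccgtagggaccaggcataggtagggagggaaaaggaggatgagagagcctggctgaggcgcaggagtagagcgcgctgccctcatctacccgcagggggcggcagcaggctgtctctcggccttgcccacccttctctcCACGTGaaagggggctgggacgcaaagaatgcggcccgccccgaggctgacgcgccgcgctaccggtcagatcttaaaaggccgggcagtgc

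The Nfkbiz window had 1 kappaB match, starting at base 238. The Slc2a1 window had 4 matches to the hypoxia core, and the Pfkfb3 window had 2 that overlap, since the letters read the same on both strands. The windows of Tnf and Hk2 had no match to the motif of their list. A match is a description of the letters and was not tested as a binding site.

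Of 17 glucocorticoid-responsive genes measured, 6 were higher and 4 lower, after 12 had risen and 0 fallen in the first hour (21.7% and 15.4% of all probe sets). Mt1a, a metallothionein, had a step of 0.51 (SE 0.11), Anxa1, annexin A1, one of 0.47 (SE 0.11) and Fkbp5, a chaperone of the glucocorticoid receptor, one of 0.42 (SE 0.10) after 1.56 in the first hour. Klf9 and Ddit4, direct targets of the receptor, had risen by 0.27 and 0.28 and turned back, with steps of -0.36 (SE 0.11) and -0.28 (SE 0.06). For 9 of the 17 genes the second hour was called below the first, and for 0 above (6.32% and 4.73% of all probe sets).

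Of 28 immediate early genes, 4 were higher and 1 lower. Ier3, an early gene that protects cells from apoptosis, went from 7.19 ± 0.24 to 7.88 ± 0.20, a step of 0.69 (SE 0.12). Csrnp1, a nuclear factor induced by axin, had a step of 0.34 (SE 0.10) and Nr4a2, an orphan nuclear receptor, one of -0.41 (SE 0.13), and both calls were lost with unequal variances. Jun, a subunit of AP-1, was at 0.40 (SE 0.15, FDR 0.0963). Of 29 interferon-response genes, 6 were higher and 3 lower, with a median step of 0.03. Ifit2, an RNA-binding antiviral protein, had a step of 0.37 (SE 0.07), and Stat2, a subunit of the interferon-induced factor ISGF3, turned back from a fall with 0.36 (SE 0.08). Cmpk2, a mitochondrial nucleotide kinase, turned back from a rise with -0.34 (SE 0.10), and Mx2, an antiviral GTPase, had -0.33 (SE 0.10).

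Among 16 chemokine receptors, 2 were higher and 3 lower. Ccr1, a receptor of myeloid cells, had a step of 0.49 (SE 0.15), and Cxcr2, which guides neutrophils, one of 0.36 (SE 0.10). The falls were those of Ccr3, Ccr7 and Cxcr4, the receptor that retains cells in bone marrow, which was at 10.61 ± 0.17 and 10.15 ± 0.13, a step of -0.46 (SE 0.10) that began after 1 h. Of 16 clock genes, Nfil3, a repressor, was higher by 0.43 (SE 0.06, FDR 1.29e-06) and Arntl, an activator, lower by 0.25, and the Arntl call was lost in 4 alternative settings.

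Of 27 cell cycle genes, 2 were higher and 4 lower. Rrm2, a subunit of ribonucleotide reductase, was not called by the probe set used, at 0.31 (FDR 0.172), but was called higher by its other probe set, at 0.54 (FDR 0.00488). Mcm6, a subunit of the replicative helicase, had a step of -0.41 (SE 0.09), and Cenpf, a kinetochore protein, turned back from a rise with -0.35 (SE 0.10). Among 77 cytosolic ribosomal protein genes, 0 were higher and 3 lower, with a median step of -0.09 after -0.19. The 3 were Rps3, Rpl7a and Rpl6, the other probe set of Rpl7a was not called, and the Rps3 call was lost after centring (FDR 0.0532). Of 69 respiratory chain genes only Sdhc, a subunit of complex II, was called, at 0.30 (SE 0.09), after 25 had fallen in the first hour, where 15.4% of all probe sets fell. Of the 16 heat shock genes listed and measured, 0 were called in the limma test, and 3 had an unadjusted p below 0.05. The list does not hold every gene of these families: of all measured genes of the stems Hspa, Dnajb and Dnajc, 2 of 11, 3 of 13 and 3 of 28 were lower and 0, 0 and 5 higher, beside 4.11% and 4.66% over all probe sets. Hspd1, a mitochondrial chaperonin, was at -0.42 (SE 0.15, FDR 0.0603), and it was called without the lowest 25% of probe sets (FDR 0.0494).

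Lists for other tissues held few calls, as did probe sets of low signal in general. Of 14 brain genes, 0 were called by the limma test (8.78% of all probe sets, and 3.87% in the signal group of their median), and 3 had an unadjusted p below 0.05. Of 15 genes of skin, connective tissue and muscle, 0 were called, and 0 had an unadjusted p below 0.05. Gfap, an astrocyte filament, was at -0.19 (SE 0.10, FDR 0.257). Of 10 endothelial genes, Tie1, a receptor tyrosine kinase, was higher by 0.32 (SE 0.07), having fallen by 0.36 in the first hour. A change within the error of 8 arrays per time was not detectable.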

How the data were processed

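RNA from blood cell pellets of 8 SHR rats was measured on 47 Affymetrix rat gene arrays at 6 time points. The authors deposited log2 signal values, summarized by RMA per the file headers, as a mean and an SD per probe set and time point, annotated on rn5. The submitters' processing notes name limma. From these 12 columns, with 8 arrays per time point and 7 at 6 h, the step from 1 h to 2 h was tested by limma (3.58.1, R 4.3.3): variances of the 6 time points were pooled (41 residual degrees of freedom), moderated by squeezeVar (prior 5.707 degrees of freedom) and judged by a Benjamini-Hochberg FDR of 0.05 over 27596 probe sets. The change from 0 h to 1 h and the difference between both hours were tested likewise. The mean columns were taken as plain means of the arrays.

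The table's 47 columns of single arrays carry names that do not tell which rat and time each belongs to, and were left out. Its 19 columns of the authors' comparisons (fold changes, p-values, FDRs and F-tests) were not used either. The methods state that samples were randomized over 6 RNA batches, but which sample was in which batch is not given in the sources used here, so batch was not tested. The number of arrays limits the precision. The p-values rest on the spread of arrays within time points, in which rat, RNA batch and array are mixed. The spread of the step over single rats was not estimated.

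Genes were named by a rule: in each of 6 classes the 5 largest called steps among probe sets with 1 established symbol, in each list up to 4 genes with the largest step, and defining markers of blood cells. A few others, such as Slc2a1, Cd83, Cxcr4, Ndrg1, Eno1, Klf9, Ddit4, Rpl6, Rpl7a, the Hspa, Dnajb and Dnajc stems and the probe set 10934207, were named after their values were seen. The results of a few genes that the rule names are not reported here by name. The members, classes and lists were chosen with earlier results of these data known. The 9 alternatives were the variance of the 1 h and 2 h arrays alone, an ordinary variance, unequal variances (Welch), an intensity trend with a robust prior, centring, quantile normalization, leaving out the lowest 25% of probe sets, an FDR of 0.01, and an unadjusted p below 0.05 for the first hour. Promoter sequences are from RefSeq (GRCr8).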

Additional observations from a re-analysis of the deposited data

Results flagged for a closer look

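The change from 1 h to 2 h differed from the change from 0 h to 1 h in 3051 probe sets (11.1% of 27596) by the limma test of the difference at an FDR below 0.05. It is given here because the size or direction of the change differed between the intervals. They were not of equal length: the 0 h sample was drawn before anesthesia, so the first interval also held the surgery. For 1660 of them a rise had been called in the first hour, and for 1381 of these the second hour had no called step, in 201 it turned back and in 78 the rise went on. For 1107 a fall had been called, and 929 of these had no called step. A further 269 had no call in the first hour and a called step in the second. Ifi30 had the smallest p, with -1.14 in the first hour and 0.58 in the second. Swap70, a guanine exchange factor of B cells, had -1.49 and 0.01. Pmaip1, a pro-apoptotic BH3-only protein, had 0.88 and -0.48. Nfe2l2, the factor NRF2 of the oxidative stress response, had -0.31 and 0.52, and Vim, vimentin, had -0.29 and 0.39. These 5 were chosen after their values were seen.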

How the results depend on the processing

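Over the alternatives, the number of probe sets called higher ranged from 797 to 1516 and the number called lower from 420 to 1256. Counts moved by over 1.5 times in 2 of the settings only. After centring, rises that turned back numbered 83 and falls that turned back 240, which turns their order. At an FDR of 0.01, 797 probe sets were higher and 420 lower, rises began in 372 and falls in 202, rises went on in 374 and falls in 183, rises turned back in 35 and falls in 51, the difference between the hours was called in 1032, and 73 list members were called. Of 115 named genes, 92 kept their call in every setting in which they were tested, 23 changed it and none reversed. Those of low signal were not tested without the lowest 25% of probe sets. No paired analysis was possible because the names of the single-array columns give no rat or time, and samples were not assigned by the order of columns. For the same reason the rat as a block and the leaving out of each rat were not run. The signal of single arrays over background was not assessed.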

Other observations

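Genes whose symbols share a stem were counted where at least 10 of them were measured. Among 11 genes of the stem Cct, most of which encode subunits of the cytosolic chaperonin that folds actin and tubulin, 5 were lower at 2 h and 0 higher, with a median step of -0.28, beside 4.11% lower over all probe sets. Cct3 moved most, from 9.06 to 8.47, a step of -0.59 (SE 0.11) after 0.06 in the first hour, and Cct8, Cct7, Cct6a and Cct2 had steps of -0.34, -0.33, -0.30 and -0.28 as part of falls that had begun in the first hour. Among 12 annexin genes, which encode calcium-dependent membrane-binding proteins, 5 were higher and 0 lower, with a median step of 0.08, beside 4.66% higher over all probe sets. Anxa3, Anxa11, Anxa1 and Anxa2 had steps of 0.53, 0.52, 0.47 and 0.41 and had risen in the first hour, and Anxa9 had a step of 0.33. Of 17 genes of the Klf stem, a family of zinc finger factors, 4 were higher and 3 lower, beside 4.66% and 4.11%. These stems were picked after their values were seen and were not tested as sets.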
